A study of Mus musculus with 24 samples.

Results

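Ero1a and Ero1b encode the ERO1 oxidases of the endoplasmic reticulum (ER). They are 2 of the 8251 genes measured, and they were chosen by name, with all of their probe sets: 97871_at and 97870_s_at for Ero1a and 103531_f_at for Ero1b, together 3 of 12488 probe sets. Both genes passed the filter on low signals that left 5692 genes for testing. The gene Ero1a was represented in the test by 97871_at, its brighter probe set, and 97870_s_at was tested in a separate fit of every probe set. In the array maker's naming, the endings "_s_at" and "_f_at" mark probes that can also read similar sequences of other transcripts, and the sources used here do not give which ones. Ero1b therefore rests on a single probe set that may read other transcripts as well.

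RNA was measured on 24 oligonucleotide arrays from primary mouse embryonic fibroblasts, 4 arrays (A to D) in each of 6 groups. There were 3 groups of CHOP-/- cells, which lack both copies of the gene for the transcription factor CHOP: cells without treatment, cells after 4 h and cells after 8 h in tunicamycin (2 µg/ml). The other 3 groups were wild type cells handled in the same ways. Tunicamycin stops the N-linked glycosylation of new proteins, which then misfold and collect in the ER. The labels state passage 3 for only 3 arrays, all from untreated wild type cells. No culture time is stated for the untreated cells, and no group had solvent alone, so tunicamycin cannot be told apart from time and handling. Nothing says that the 4 arrays of a group were separate cultures, so the p-values speak only for the spread among these arrays, which may be technical. In RNA from whole cultures, fewer cells that express a gene and less RNA per cell cannot be told apart.

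ERO1 enzymes are flavoproteins that take electrons from protein disulfide isomerases and pass them to oxygen, which makes disulfide bonds in new proteins and releases hydrogen peroxide. In mammals Ero1a is broadly expressed and is known to be induced by hypoxia. Ero1b is known as a gene of the unfolded protein response and is abundant in secretory tissues such as the pancreas. CHOP, encoded by Ddit3, is induced through the PERK arm of that response, and Ero1a has been reported as a CHOP target through which CHOP makes the ER more oxidising. The genotype comparison asks which responses need CHOP, and the oxidases are among the genes it bears on.

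The promoters of both genes are shown first because the ER stress response element, to which ATF6 and XBP1 are known to bind with NF-Y, was found in only one of them. On the RefSeq annotation of GRCm38.p6, Ero1a lies on the minus strand at chr14:45283087-45318572, a span of 35486 bases, and Ero1b lies on the plus strand at chr13:12565818-12609533, a span of 43716 bases. Each sequence runs 5′ to 3′ in the direction of its gene, from 250 bases before to 50 bases after the start on which the RefSeq promoter table builds its window. For Ero1a this start is base 45318572, the first of the gene span, and for Ero1b it is base 12565883, 65 bases inside the span. Capitals mark the ER stress response element, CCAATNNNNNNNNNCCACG, searched on both strands.
Ero1a promoter, chr14:45318523-45318822, minus strand: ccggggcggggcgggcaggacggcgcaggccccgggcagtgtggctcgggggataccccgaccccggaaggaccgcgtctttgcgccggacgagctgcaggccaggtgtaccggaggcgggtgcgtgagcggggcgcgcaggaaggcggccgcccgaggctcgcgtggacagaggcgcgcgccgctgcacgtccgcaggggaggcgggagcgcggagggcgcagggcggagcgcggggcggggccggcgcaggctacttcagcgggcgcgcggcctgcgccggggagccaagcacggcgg
Ero1b promoter, chr13:12565633-12565932, plus strand: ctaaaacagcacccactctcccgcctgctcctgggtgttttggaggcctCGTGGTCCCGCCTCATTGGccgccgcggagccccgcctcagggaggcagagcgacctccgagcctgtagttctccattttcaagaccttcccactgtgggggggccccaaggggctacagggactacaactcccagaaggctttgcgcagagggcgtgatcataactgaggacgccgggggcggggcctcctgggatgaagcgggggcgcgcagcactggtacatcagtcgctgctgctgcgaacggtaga
The Ero1a window was 80.3% G or C, and the Ero1b window was 64.7% G or C.

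The Ero1b element occupied bases -201 to -183 from that start, or -136 to -118 from the first base of the gene span, on the strand opposite to the gene. Of 32851 promoters of the same length, 39, or 0.119%, held it. The related element ATTGGNCCACG (12 promoters, 0.0365%) and the XBP1 and ATF6 site TGACGTGG (222 promoters, 0.676%) were in neither window. Neither were the C/EBP-ATF composite TGATGNAAT (317 promoters, 0.965%) and the CHOP site TGCAATNCC (196 promoters, 0.597%). The core ACGTG, read by hypoxia-inducible factors, occurred once in the Ero1a window (bases -63 to -59 from its start) and not in the Ero1b window, against a share of 19.6% of all promoters. Its form GCGTG, held by 32.4% of promoters, had 2 matches for Ero1a and 1 for Ero1b. One of the Ero1a matches overlapped CCACG, found in 32.8% of promoters, and the CCAAT and CCACG matches of Ero1b were the ends of the element itself. CCAAT alone was held by 37.4% of promoters and was not in the Ero1a window. A match describes letters in a window of 300 bases, and no match says only that the letters are not in that window.

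Among 4622 tested genes with a promoter in the RefSeq table, 11 (0.238%) held the element. Of 463 such genes called higher after 8 h of tunicamycin in wild type cells, 7 (1.51%) held it: Ero1b, Creld2, Dnajc3, Hspa5, Hsp90b1, Pdia6 and Zfp57. It was in 4 of 11 listed ATF6 and XBP1 target genes (36.4%) and in 0 of 5 genes reported to depend on CHOP. The element is known as a site of ATF6 and XBP1, and the lists were drawn up with results of these data known. The 36.4% is therefore no separate evidence. Beside a share of 0.238%, a count of 0 among 5 genes is not a result about them. The matches of Ero1b and of the ER chaperone and folding genes that rose with it are set side by side, each read on the strand that has CCAAT first, with both ends of the element in capitals.
Ero1b, chr13:12565682-12565700: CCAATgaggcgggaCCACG
Creld2, chr15:88819520-88819538: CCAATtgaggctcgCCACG
Dnajc3, chr14:118937827-118937845: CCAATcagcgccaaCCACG
Hspa5, chr2:34772025-34772043: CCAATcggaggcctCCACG
Pdia6, chr12:17266491-17266509: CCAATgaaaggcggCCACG
Hsp90b1, first match, chr10:86705533-86705551: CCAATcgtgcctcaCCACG
Hsp90b1, second match, chr10:86705638-86705656: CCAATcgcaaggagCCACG
Zfp57, which encodes a zinc finger protein of genomic imprinting, held the element and rose by 1.83 on the log2 scale in wild type cells at 8 h. Canx, which encodes the chaperone calnexin, held it too and changed by 0.04 (adjusted p = 0.940). The other tested genes that held it were Adcy3 (-0.002), Ptgdr2 (0.14) and Pan2 (0.24). None of them was called in wild type cells at 8 h.

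Ddit3 was checked before the oxidases because it tells the genotypes apart. In CHOP-/- cells its probe set gave 14.7 ± 12 untreated, 31.6 ± 11 at 4 h and 20.5 ± 14.4 at 8 h, against 299.6 ± 97.4, 3652 ± 722 and 4383 ± 524 in wild type cells (mean signal ± SD, n = 4). The arrays carried fibroblast RNA by their markers: 9 of 10 fibroblast markers, among them Col1a1, Col3a1, Thy1 and Pdgfra, lay above a signal of 27.7, the level of the filter, on all 24 arrays. The probe set of Vim, the fibroblast intermediate filament gene, did so on 6. Because Ero1b is known from the pancreas, pancreatic markers were read as well, and Ins2, Gcg and Pdx1 were under that level on all 24 arrays. Cela1 was over it on 23 arrays, with a median signal of 67.2. Summed over the 4 pancreatic markers measured, the signal was 28.2 to 95.8 in CHOP-/- cells at 8 h, against 52.1 to 105.1 in untreated CHOP-/- cells, and 66.9 to 100.4 in wild type cells at 8 h, against 76.6 to 115.9 in untreated wild type cells. The summed signal of 5 leukocyte markers was 67.2 to 265.8 in CHOP-/- and 125.3 to 1567 in wild type cells at 8 h, with Cd3e under the filter level on all 24 arrays and Lyz2 between 32.7 and 1563. Neural markers also moved with genotype. Of the 4 measured, Tubb3, a neuronal tubulin gene, and Ncam1, a neural adhesion molecule gene, lay above the filter level on all 24 arrays, Gfap on 7 and Nefl on none. Their summed signal was 2967 to 3424 in CHOP-/- and 1686 to 2148 in wild type cells at 8 h, without overlap, whereas the genotypes overlapped at 4 h and untreated. Tubb3 was higher in CHOP-/- cells at 8 h by 0.73 on the log2 scale (adjusted p = 7.84e-05) and Ncam1 by 0.72 (adjusted p = 0.0238). By median signal, 4 of 5 muscle markers also lay above the filter level, among them Actc1 (996.8 to 2088). So did 1 of 4 epithelial markers, Cdh1, and 0 of 4 endothelial ones. The part of the leukocyte, neural and other markers in the genotype differences was not tested.

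Ero1a rose with tunicamycin in both genotypes and stayed lower in CHOP-/- cells. On 97871_at, CHOP-/- arrays A to D gave 601, 527.8, 600.1 and 537.1 untreated, then 689.4, 769.5, 426.6 and 579.3 at 4 h, then 803.3, 833.1, 991.2 and 861.8 at 8 h. Wild type arrays A to D gave 603.8, 611.3, 631.1 and 786.1 untreated, then 1004.7, 961.5, 845.5 and 1240 at 4 h, then 1346.7, 1401.6, 1500.8 and 1756.7 at 8 h. All 4 wild type arrays at 8 h lay above every other array of the series, whereas the CHOP-/- arrays at 4 h spread from below to above the untreated ones. The CHOP-/- means were 566.5 ± 39.5 untreated, 616.2 ± 149 at 4 h and 872.4 ± 82.8 at 8 h, and the wild type means were 658.1 ± 86.1, 1013 ± 166 and 1501 ± 182 (SD, n = 4). Array D of the untreated wild type cells, at 786.1, stood apart from the other 3 of its group.

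**Figure D1:**
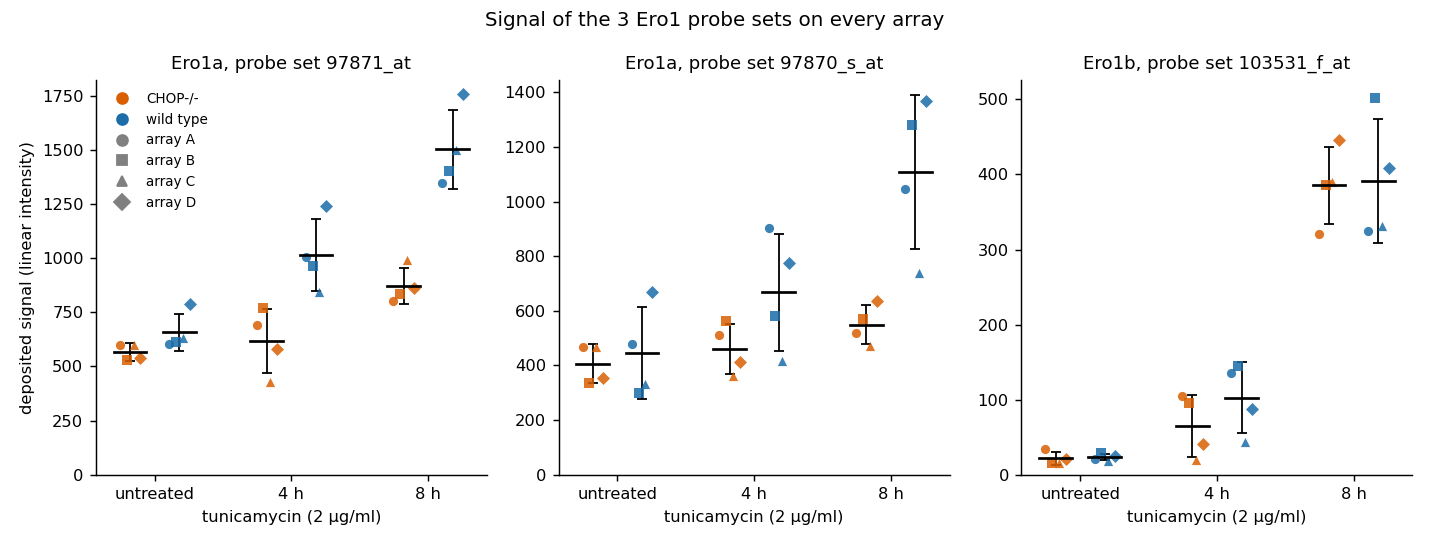
Deposited signal (linear intensity, vertical axes starting at 0) of both Ero1a probe sets and of the Ero1b probe set on every array, untreated and after 4 h and 8 h of tunicamycin, with CHOP-/- in orange left of wild type in blue and a symbol for each array letter. Bars give the mean and SD of 4 arrays. On 97871_at the wild type arrays at 8 h (1346.7 to 1756.7) lie above the CHOP-/- arrays (803.3 to 991.2), and on the Ero1b probe set the genotypes overlap at 8 h (320.1 to 446.3 in CHOP-/- and 324.9 to 501.7 in wild type cells).

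Changes were tested with limma over all 5692 genes, with Benjamini-Hochberg adjusted p under 0.05 as a call, and fold changes are on the log2(signal + 5.7) scale. In CHOP-/- cells Ero1a did not pass at 4 h (log2 change 0.11 ± 0.15 SE, adjusted p = 0.854) and rose at 8 h by 0.60 ± 0.15, or 1.52-fold (adjusted p = 0.00669). In wild type cells it rose by 0.61 ± 0.15 at 4 h, or 1.53-fold (adjusted p = 0.0251), and by 1.16 ± 0.15 at 8 h, or 2.24-fold (adjusted p = 5.13e-06). Of all genes, CHOP-/- cells had 1.48% called at 4 h and 13.9% at 8 h, and wild type cells had 2.13% at 4 h and 16.6% at 8 h. Between 4 h and 8 h, Ero1a rose by 0.55 in wild type cells (adjusted p = 0.0333), where 4.13% of genes were called, and its change of 0.49 in CHOP-/- cells missed the threshold (adjusted p = 0.0518), where 5.53% were called. With the array letters as a block, since arrays of the same letter deviated together in the wild type comparisons, the number of wild type genes called was 193 in place of 121 at 4 h, 1634 in place of 944 at 8 h and 428 in place of 235 between the times, and no call of Ero1a or Ero1b in these comparisons changed.

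The 4 h rise of Ero1a in wild type cells was close to the threshold. It was lost without untreated array A (0.57), B (0.58) or C (0.59), and without 4 h array A (0.61) or D (0.51), with adjusted p from 0.0694 to 0.120. The wild type rise between the times was lost without 4 h array A (0.56), B (0.53) or C (0.45), and without 8 h array B (0.57), C (0.56) or D (0.47). The CHOP-/- change between the times passed without 4 h array A (0.55) or B (0.60). The 8 h rises passed whichever array was left out.

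The genotypes differed for Ero1a under tunicamycin. Untreated, the difference of CHOP-/- from wild type was -0.22 ± 0.15 (adjusted p = 0.705, with 0.984% of genes called). At 4 h Ero1a was lower in CHOP-/- cells by 0.73 ± 0.15, or 1.65-fold (log2 difference -0.73, adjusted p = 0.00656), and at 8 h by 0.79 ± 0.15, or 1.73-fold (log2 difference -0.79, adjusted p = 0.00196), with 2.49% and 4.16% of genes called. The arrays of 97871_at did not overlap between the genotypes at any of the 3 times. Untreated, they were apart by only 601 in CHOP-/- against 603.8 in wild type cells. Such separation occurred in 5.27% of genes untreated, 7.87% at 4 h and 11.5% at 8 h. At 8 h, 659 genes were called with the letters as a block, in place of 237, and Ero1a was called in both fits. The summed neural markers did not overlap between the genotypes at 8 h either, and their part in this difference was not tested.

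Whether the response of Ero1a itself differed between the genotypes is a separate question, since the untreated values also lay lower in CHOP-/- cells. The CHOP-/- response minus the wild type response was -0.50 ± 0.21 at 4 h (95% confidence interval -0.93 to -0.07, unadjusted p = 0.0237) and -0.56 ± 0.21 at 8 h (-0.99 to -0.13, unadjusted p = 0.0122). Neither passed limma's adjustment over all genes (adjusted p = 0.996 at 4 h and 0.989 at 8 h). With this test 0% of genes were called at 4 h and 0.0351% at 8 h, that is 0 and 2 genes, while 230 and 262 had an unadjusted p under 0.05. A smaller response of Ero1a in CHOP-/- cells was therefore not shown at the level of all genes.

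The other Ero1a probe set, 97870_s_at, ran in the same direction with more spread. CHOP-/- arrays A to D gave 467.7, 337.4, 468.6 and 354.5 untreated, then 511.7, 562.1, 360.2 and 412.5 at 4 h, then 518.4, 568.8, 469.7 and 637.8 at 8 h. Wild type arrays gave 479.6, 298.1, 332.7 and 668.1 untreated, then 902.2, 580, 416 and 776.1 at 4 h, then 1047.4, 1281.4, 736.8 and 1366.7 at 8 h. Only at 8 h were the wild type arrays clear of both the untreated wild type and the 8 h CHOP-/- arrays, and array C was the lowest of the wild type arrays at both 4 h and 8 h. In the fit of all 12422 probe sets without controls, its log2 change in CHOP-/- cells was 0.44 ± 0.24 at 8 h (adjusted p = 0.374). In wild type cells it rose by 1.31 ± 0.24 at 8 h (adjusted p = 0.0011), and its 4 h change was 0.58 (adjusted p = 0.500). CHOP-/- cells were lower at 8 h (log2 difference -0.98, adjusted p = 0.0352), and the 4 h difference was -0.49 (adjusted p = 0.445). The response difference at 8 h was -0.87 ± 0.35 (unadjusted p = 0.0196, adjusted p = 0.999). In that fit 6.83% of probe sets were called in CHOP-/- cells at 8 h, 0.95% and 8.22% in wild type cells at 4 h and 8 h, 1.16% and 2.02% between genotypes at 4 h and 8 h, and 0.0242% for the response difference at 8 h. Over the 24 arrays the Ero1a probe sets had a Pearson r of 0.886, and 0.637 after the group means were removed. Given as a description, these r values come from arrays that share groups and, within a letter, deviations.

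Ero1b rose far more than Ero1a, from signals near the lower end of the array. On its probe set CHOP-/- arrays A to D gave 34.3, 16.3, 15.8 and 20.7 untreated, then 104.8, 95.3, 19.4 and 40.5 at 4 h, then 320.1, 385.3, 389.9 and 446.3 at 8 h. Wild type arrays gave 21.5, 29.6, 18.9 and 24.6 untreated, then 135, 145.3, 43.3 and 87.3 at 4 h, then 324.9, 501.7, 331.4 and 408.8 at 8 h. Every 8 h array of either genotype lay above every 4 h array, and at 4 h CHOP-/- array C, at 19.4, was still among the untreated values. The CHOP-/- means were 21.8 ± 8.64 untreated, 65 ± 41.6 at 4 h and 385.4 ± 51.6 at 8 h, and the wild type means were 23.7 ± 4.6, 102.7 ± 47 and 391.7 ± 82.6 (SD, n = 4). In each genotype 3 of 4 untreated arrays were under the filter signal of 27.7, as was 1 of 4 CHOP-/- arrays at 4 h, so folds are given with those arrays set to that signal, as lower bounds.

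By limma, Ero1b rose by 3.91 ± 0.36 on the log2 scale in CHOP-/- cells at 8 h, at least 11.4-fold (adjusted p = 7.44e-08). In wild type cells it rose by 3.76 ± 0.36 at 8 h, at least 11.3-fold (adjusted p = 7.61e-08), and by 1.77 at 4 h, at least 2.86-fold (adjusted p = 0.00608). Ranks were taken with every signal under 27.7 set to that level in all 5692 genes, and the 8 h rise was then in place 1 in CHOP-/- and in place 3 in wild type cells. Between 4 h and 8 h it was in place 1 in both genotypes. That rise measured 2.77 in CHOP-/- cells, at least 6.2-fold (adjusted p = 5.47e-05), and 1.98, or 3.95-fold, in wild type cells (adjusted p = 0.00198). Neither group pair overlapped between the times, which held for 11.8% of genes in CHOP-/- cells and 9.21% in wild type cells. Against untreated cells the arrays of Ero1b were also apart at 8 h in both genotypes, as were those of 18.5% of genes in CHOP-/- and 20.6% in wild type cells, and at 4 h in wild type cells, as in 6.92% of genes.

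The genotypes were not told apart for Ero1b. At 8 h CHOP-/- differed from wild type by -0.02 (95% confidence interval -0.76 to 0.71, adjusted p = 0.987), an interval that still includes changes of more than 1.5-fold either way. Untreated, the difference was -0.18 (adjusted p = 0.930). At 4 h it was -0.81 (interval -1.55 to -0.07, unadjusted p = 0.0328, adjusted p = 0.269), and the arrays overlapped. The response difference was -0.63 at 4 h (interval -1.67 to 0.41) and 0.15 at 8 h (interval -0.89 to 1.19), and neither passed.

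**Figure D2:**
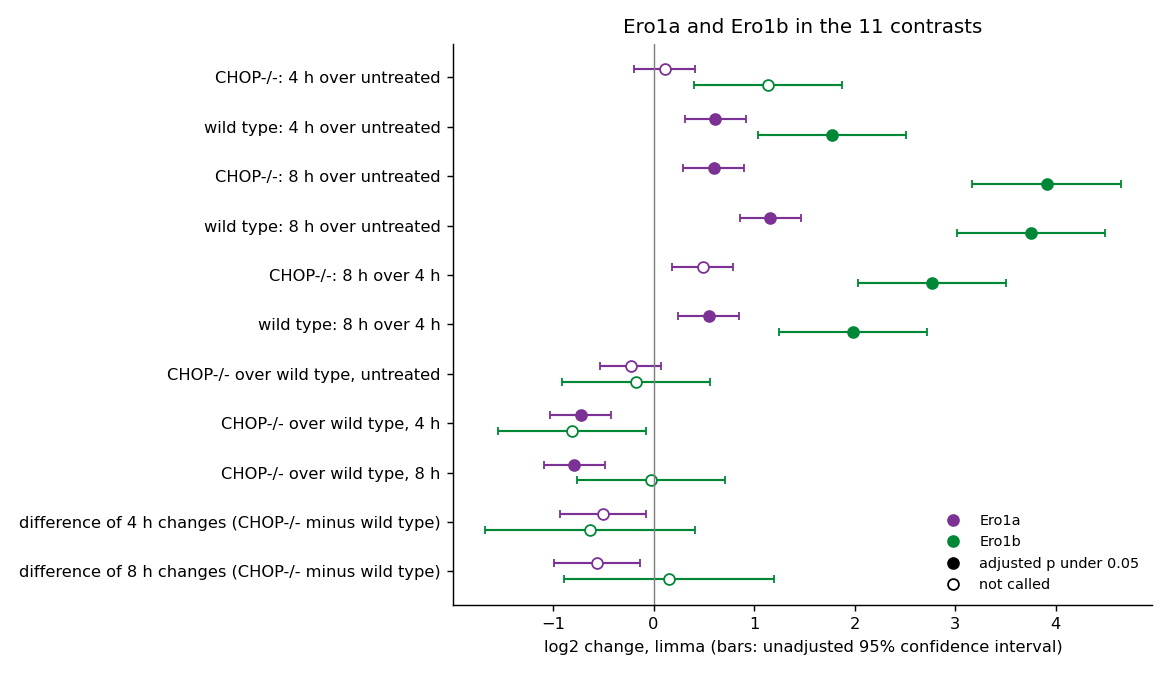
Log2 change of Ero1a (purple) and Ero1b (green) in each of the 11 comparisons made with limma, on the horizontal axis, with unadjusted 95% confidence intervals; filled points have an adjusted p under 0.05. Ero1b lies to the right of Ero1a in the tunicamycin responses (3.91 and 0.60 in CHOP-/- cells at 8 h), and Ero1a is called lower in CHOP-/- cells at 4 h (-0.73) and 8 h (-0.79).

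Whether the 4 h response of Ero1b in CHOP-/- cells was called depended on 1 array and on the model. With the array letters as a block and all arrays kept, it was also just called. Arrays of the same letter did not all deviate together in this comparison, however (correlations from -0.342 to 0.433). Without the block and with all arrays, the log2 change of Ero1b was 1.14 ± 0.36 (limma, unadjusted p = 0.00392, adjusted p = 0.137). Its arrays overlapped the untreated ones, whereas 5.92% of all genes did not overlap in that comparison. Above the untreated mean, arrays A, B and D lay at 2.12, 1.93 and 0.66 on the log2 scale and array C at -0.15. Without array C the change was 1.58 (adjusted p = 0.00770, called), and the genotype difference at 4 h was -0.38 (adjusted p = 0.719). For Ero1a, array C lay at -0.33, against 0.28, 0.44 and 0.06 on arrays A, B and D. Without it, the 4 h change of Ero1a in CHOP-/- cells was 0.26 (adjusted p = 0.577) and the genotype difference at 4 h was -0.58 (adjusted p = 0.0295, still called). The change between 4 h and 8 h was then 0.34 for Ero1a (adjusted p = 0.235) and 2.34 for Ero1b (adjusted p = 0.000124).

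Array C of the 4 h CHOP-/- group was low for other ER stress genes too. It was the lowest of its group for 9 of 12 tested ATF6 and XBP1 target genes, with a median of 0.32 above the untreated mean, against 0.81, 0.73 and 0.57 on arrays A, B and D. In wild type cells at 4 h, array C was the lowest for 6 of the 12, with a median of 0.63, against 0.84, 0.85 and 0.74. Creld2, for instance, gave 1292.5, 1560.7, 465.3 and 634.5 on CHOP-/- arrays A to D at 4 h, against 302 to 360.2 in untreated CHOP-/- cells. Nothing in the labels sets array C apart, and the cause was not tested.

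**Figure D3:**
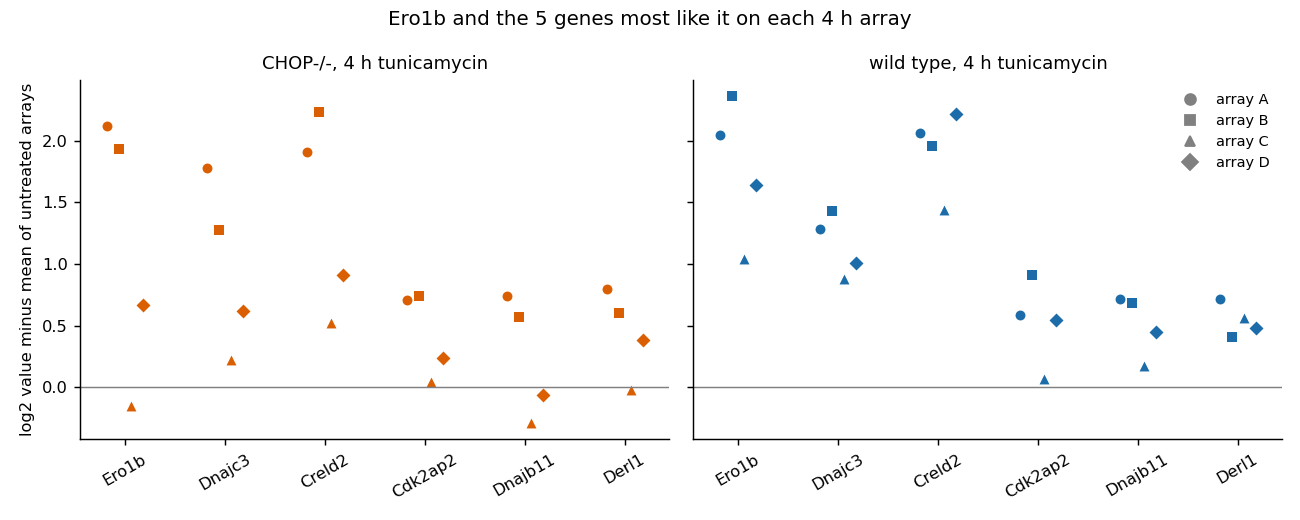
Log2 value on each 4 h array minus the mean of the untreated arrays of the same genotype, for Ero1b and the 5 genes with the most similar pattern, with CHOP-/- on the left and wild type on the right and a symbol for each array. In CHOP-/- cells array C is the lowest for all 6 genes shown, at -0.15 for Ero1b, against 2.12 and 1.93 on arrays A and B.

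The changes of the oxidases were compared with each other by the difference of their log2 values on each array, which sets no level of one probe set against the other. With 4 arrays against 4, an exact two-sided permutation test cannot give a p under 0.0286. That smallest p was reached in 6 of the 9 comparisons made, and adjustment over the 9 then gave 0.0429. The adjusted value depends on how many comparisons reach the smallest p. Ero1b rose more than Ero1a by 3.31 at 8 h and by 2.28 between 4 h and 8 h in CHOP-/- cells, and by 1.16 at 4 h, 2.59 at 8 h and 1.43 between the times in wild type cells. Since low Ero1b signals enter these values, they were also taken with signals under 27.7 set to it. Ero1b then rose more by at least 2.91 at 8 h and 2.15 between the times in CHOP-/- cells, and by at least 0.90 at 4 h and 2.34 at 8 h in wild type cells, each again at the smallest p of the exact test (adjusted p = 0.0367). The genotype difference at 8 h also differed between the genes, by 0.76, with -0.79 for Ero1a and -0.02 for Ero1b. The 4 h response in CHOP-/- cells differed by 1.03 (exact p = 0.0571, adjusted p = 0.0735), or by 0.76 with low signals raised to 27.7 (exact test, adjusted p = 0.0367). That pass came with the raised signals. They set Ero1b on 4 h array C (19.4) level with untreated arrays, and Ero1a was low on that array (426.6). The pass does not show that Ero1b rose on array C. The genotype differences differed by 0.05 untreated (exact test, adjusted p = 0.804) and by -0.08 at 4 h (adjusted p = 0.857). With 97870_s_at in place of 97871_at the 8 h differences were 3.47 in CHOP-/- cells, 2.45 in wild type cells and 0.96 between genotypes. Each was again at the smallest p of the exact test. The adjusted p was 0.0514, so none passed, and with fewer comparisons at that smallest p none could have.

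The levels over the 6 groups followed this order. For Ero1a on 97871_at, wild type cells at 8 h were highest, then wild type at 4 h, CHOP-/- at 8 h, untreated wild type, CHOP-/- at 4 h and untreated CHOP-/- cells. Of these neighbours, wild type at 8 h and at 4 h did not overlap, while CHOP-/- at 8 h (803.3 to 991.2) and wild type at 4 h (845.5 to 1240) did. CHOP-/- at 8 h lay clear of the untreated wild type arrays (603.8 to 786.1), and CHOP-/- at 4 h (426.6 to 769.5) overlapped both untreated groups. For Ero1b, both genotypes at 8 h came first and overlapped, both at 4 h followed and overlapped, and both untreated groups were last and overlapped.

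The 5 tested genes with the pattern most like each oxidase, by Pearson r of log2 values over the 24 arrays, were not the same for the pair. For Ero1a they were Stam (r = 0.929), an adaptor of endosomal sorting, Cyb5r1 (0.915), a cytochrome b5 reductase, Trappc5 (0.911), a subunit of the TRAPP complex that tethers transport vesicles, Gnpnat1 (0.905), an enzyme of UDP-N-acetylglucosamine synthesis, and Tbpl1 (0.902), a relative of the TATA-binding protein. For Ero1b they were Dnajc3 (0.982), an ER co-chaperone, Creld2 (0.977), an ER stress protein with disulfide isomerase activity, Cdk2ap2 (0.976), a binding partner of cyclin-dependent kinase 2, Dnajb11 (0.973), a co-chaperone of BiP, and Derl1 (0.966), a part of the ER-associated degradation machinery. Ero1a and Ero1b had an r of 0.790 with each other, which put Ero1b in place 87 of 5691 for Ero1a and Ero1a in place 163 for Ero1b. Ddit3 was in place 163 for Ero1a (r = 0.741) and in place 1398 for Ero1b (r = 0.312). CHOP-/- cells lack Ddit3, so its r over the 24 arrays also holds the genotype difference of each oxidase and is no separate evidence about CHOP. These r values describe arrays that fall into groups, and the genes were picked for them.

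The genes picked for Ero1a carried its genotype difference with them, as the choice by pattern favours. At 8 h the log2 difference of CHOP-/- from wild type was -0.51 for Stam, -0.62 for Cyb5r1, -0.49 for Trappc5, -0.58 for Gnpnat1 and -0.80 for Tbpl1, and Trappc5 alone was not called (adjusted p = 0.0712). Tbpl1 gave 187.3, 164.2, 181.7 and 201.6 on CHOP-/- arrays at 8 h, against 366.2, 260.2, 298.4 and 380 on wild type arrays, and the groups did not overlap. The same differences lay between -0.04 and 0.15 for the genes picked for Ero1b, and none of them was called. Dnajc3 rose by 2.42 in CHOP-/- and 2.24 in wild type cells at 8 h, and Creld2 by 3.39 in CHOP-/- and 3.42 in wild type cells. Of 4 genes with a promoter in each set, 2 of those like Ero1b (Creld2 and Dnajc3) and 0 of those like Ero1a held the ER stress response element. Of all tested genes with a promoter, 0.238% held it, so a count of 0 among 4 genes is not a result about them. Creld2 and Dnajc3 are also in the list of ATF6 and XBP1 target genes.

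**Figure D4:**
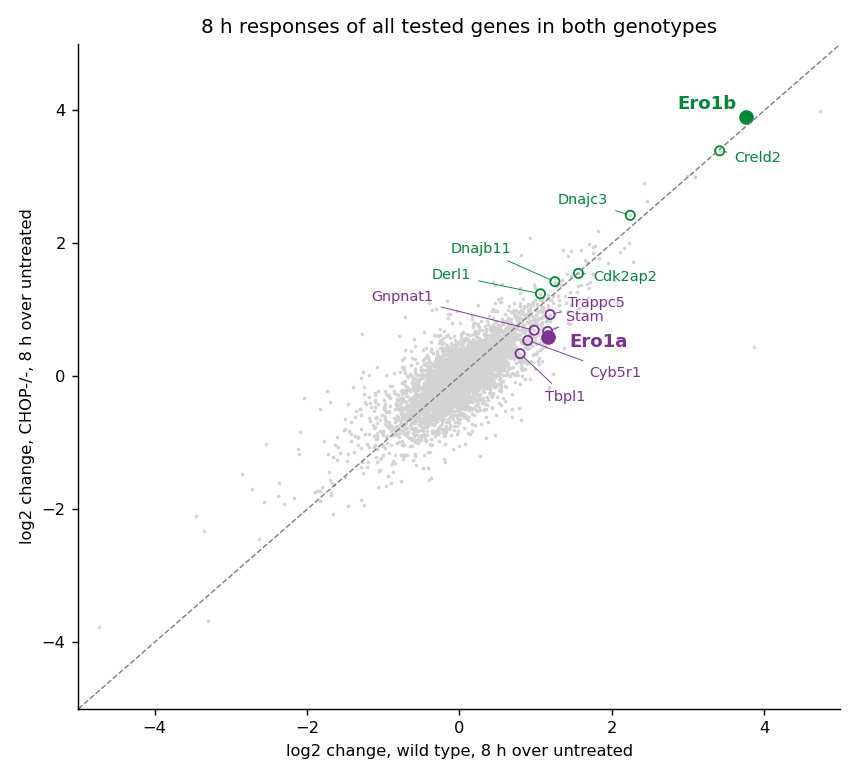
Log2 change at 8 h in wild type cells (horizontal axis) against CHOP-/- cells (vertical axis) for all 5692 tested genes (grey), with the oxidases as filled points, the 5 genes most like each as open circles, and the dashed line where both changes are equal. Ero1b (3.91 in CHOP-/- and 3.76 in wild type cells) and the genes like it lie along the line, and Ero1a (0.60 in CHOP-/- and 1.16 in wild type cells) and the genes like it lie below it.

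Genes beside the oxidases on the chromosome were also read. Gnpnat1 lies on the same chromosome as Ero1a, with 2 genes between them in the RefSeq order, and rose at 8 h by 0.69 in CHOP-/- cells (adjusted p = 0.00209) and 0.98 in wild type cells (adjusted p = 4.96e-05). It gave 991, 1043.9, 1191.9 and 1231.1 on CHOP-/- arrays at 8 h, against 1661.6, 1467.5, 1735.6 and 1797.3 on wild type arrays, without overlap. Psmc6, the next gene to Ero1a, which encodes a proteasome ATPase, changed by 0.08 in CHOP-/- and -0.16 in wild type cells at 8 h, and neither Psmc6 nor Styx, Txndc16 or, beside Ero1b, Lgals8 and Gpr137b-ps was called at 8 h in either genotype. Nid1, a basement membrane gene 26 genes from Ero1b, fell in both genotypes (-0.79 in CHOP-/- and -1.50 in wild type cells). Gpr137b, with 24 genes between it and Ero1b, was higher in CHOP-/- cells at 8 h by 1.33 (adjusted p = 1.53e-05).

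The gene lists around the oxidases were read beside the shares of all genes called in each direction. In CHOP-/- cells 7.27% of genes were called higher and 6.64% lower at 8 h, and 0.966% higher at 4 h. In wild type cells 9.65% were called higher and 6.94% lower at 8 h, and 1.79% higher at 4 h. In CHOP-/- against wild type cells 1.32% were called lower at 4 h and 1.91% at 8 h.

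Among the disulfide isomerases are the substrates of the oxidases, and the list also holds proteins with other roles, such as Erp44. Of 13 tested members, 4 rose and 1 fell in CHOP-/- cells at 8 h, and 5 rose and none fell in wild type cells, with median log2 changes of 0.28 in CHOP-/- and 0.21 in wild type cells beside -0.01 and -0.02 over all genes. Pdia4 rose by 2.00 in CHOP-/- and 2.23 in wild type cells, and Pdia6 by 1.23 in CHOP-/- and 1.16 in wild type cells. Erp44, the thioredoxin-family protein that retains ERO1 enzymes in the early secretory pathway, averaged 1097 ± 199 in CHOP-/- cells at 8 h, against 681.3 ± 32.5 untreated (log2 change 0.68, adjusted p = 0.0015), and 968.2 ± 147 in wild type cells at 8 h, against 596.8 ± 62.2 untreated (0.67, adjusted p = 0.00139; SD, n = 4). Erp29 rose in wild type cells (0.50), and its change in CHOP-/- cells was 0.40 (adjusted p = 0.064). Txndc12 fell in CHOP-/- cells by 0.43 on the log2 scale and was lower there than in wild type cells at 8 h by 0.58 (log2 difference -0.58), the 1 member called between the genotypes. P4hb, the classical protein disulfide isomerase and the best known partner of ERO1, was looked up after the values were seen and changed by 0.28 in CHOP-/- (adjusted p = 0.456) and -0.05 in wild type cells (adjusted p = 0.913). At 4 h Pdia4 alone was called, in both genotypes.

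Of 5 tested genes of other routes of oxidation in the ER, 0 passed in any of the 11 comparisons, beside 13.9% of all genes called at 8 h in CHOP-/- and 16.6% in wild type cells, and a count of 0 among so few genes is not a result about them. Their medians were -0.16 in CHOP-/- and -0.26 in wild type cells at 8 h. They include Prdx4, a peroxiredoxin of the ER that uses hydrogen peroxide to oxidise isomerases (-0.28 in CHOP-/- and -0.37 in wild type cells), and Gpx7, an ER peroxidase (-0.13 in CHOP-/- and -0.42 in wild type cells). Vkorc1 changed by -0.34 in CHOP-/- and -0.11 in wild type cells at 8 h. Qsox1 went up in CHOP-/- (0.62) and down in wild type cells (-0.26). Untreated, the difference of CHOP-/- from wild type was -1.38 for Qsox1 (limma, adjusted p = 0.300). Among 15 tested genes of peroxide and glutathione handling, 1 rose and 2 fell in CHOP-/- cells at 8 h, and 2 rose and 1 fell in wild type cells, numbers close to the share of all genes. Gsr, the glutathione reductase, fell in both (-1.24 in CHOP-/- and -0.75 in wild type cells), and Hmox1, heme oxygenase, rose in both (0.49 in CHOP-/- and 0.91 in wild type cells). Txnrd1, a thioredoxin reductase, rose in wild type cells (0.59), with 0.28 in CHOP-/- cells (adjusted p = 0.319), and Prdx2 fell in CHOP-/- cells (-0.29), with -0.20 in wild type cells (adjusted p = 0.163). None of the 15 was called between genotypes at any of the 3 times. Of all genes, only 0.984% were called untreated, 2.49% at 4 h and 4.16% at 8 h, so this count is not a result about them.

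The genes of ATF6 and XBP1, branches of the unfolded protein response beside PERK, rose beside Ero1b. Of 12 tested, 11 rose in CHOP-/- and 10 in wild type cells at 8 h, and 7 in CHOP-/- and 8 in wild type cells at 4 h. The median at 8 h was 1.47 in CHOP-/- and 1.36 in wild type cells. Herpud1, an ER-associated degradation gene, rose by 2.99 in CHOP-/- and 3.09 in wild type cells, and Manf, a secreted ER stress protein, by 1.51 in CHOP-/- and 1.46 in wild type cells. Sel1l, the adaptor of an ER ubiquitin ligase, was the 1 member called between genotypes, lower in CHOP-/- cells at 4 h (-0.68) and at 8 h (-0.60).

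Of 5 tested genes reported to depend on CHOP, 2 rose in CHOP-/- and 3 in wild type cells at 8 h, and 2 were lower in CHOP-/- cells at 4 h and at 8 h. Ppp1r15a, which encodes GADD34, rose by 1.45 in CHOP-/- and 2.02 in wild type cells, and CHOP-/- cells were lower at 8 h (log2 difference -0.96). Its calls at 8 h matched those of Ero1a, but Sel1l of the ATF6 and XBP1 list was also called lower in CHOP-/- cells at 8 h. Trib3, a pseudokinase gene, rose by 1.72 in CHOP-/- and 2.28 in wild type cells, with a difference of -0.91 that missed the threshold (adjusted p = 0.0542). Atf5, a transcription factor gene, was lower in CHOP-/- cells at all 3 times (-0.88 untreated, -1.04 at 4 h and -1.14 at 8 h) and was called in neither 8 h response. Nupr1, a stress-induced chromatin protein gene, rose in wild type cells (0.95), with 0.46 in CHOP-/- cells (adjusted p = 0.230). Bcl2l11, which encodes the cell death protein BIM, fell between 4 h and 8 h in wild type cells (-0.59, adjusted p = 0.0391), with -0.46 in CHOP-/- cells (adjusted p = 0.0968), and was called in no other comparison. The list was drawn up with results of these data known and is no independent evidence of direction.

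Ero1a is also a hypoxia gene. Of 17 tested hypoxia genes, 3 rose and 2 fell in CHOP-/- cells at 8 h, beside 7.27% and 6.64% of all genes, and 1 rose and 4 fell in wild type cells, beside 9.65% and 6.94%. The medians were -0.13 in CHOP-/- and -0.08 in wild type cells. Adm, the adrenomedullin gene, fell in both (-1.76 in CHOP-/- and -1.69 in wild type cells), and Pdk1, a pyruvate dehydrogenase kinase gene, fell in wild type cells (-0.97), with -0.47 in CHOP-/- cells (adjusted p = 0.186). Bnip3, a gene of mitophagy, fell in both (-0.77 in CHOP-/- and -0.85 in wild type cells). Pfkp, a phosphofructokinase gene, fell in wild type cells (-0.55), with -0.13 in CHOP-/- cells (adjusted p = 0.653), and CHOP-/- cells were higher at 8 h by 0.53 (adjusted p = 0.0486). Hk2, a hexokinase gene, rose in CHOP-/- cells (0.79), with 0.24 in wild type cells (adjusted p = 0.481). Vegfa, the angiogenic growth factor gene, rose in CHOP-/- cells (0.90) and was higher there than in wild type cells at 8 h by 1.03, opposite to Ero1a. Ddit4, a stress-induced inhibitor of mTOR signalling, rose in both (1.13 in CHOP-/- and 0.53 in wild type cells). Of 6 tested genes of ER calcium release and uptake, on which Ero1a is known to act through the inositol trisphosphate receptor, only Atp2a2, the SERCA2 calcium pump gene, was called, and it rose by 1.21 in CHOP-/- and 1.30 in wild type cells at 8 h. Of all genes, 7.27% were called higher at 8 h in CHOP-/- and 9.65% in wild type cells. A count of 1 among 6 genes is not a result about them.

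**Figure D5:**
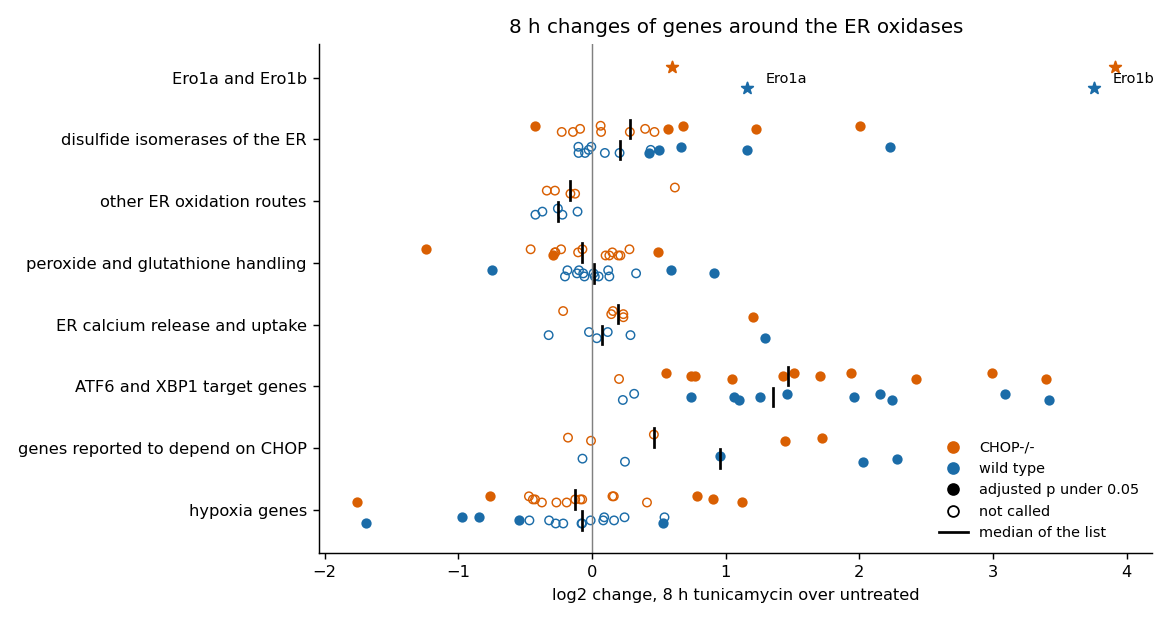
Log2 change at 8 h of each tested gene in 7 lists around the oxidases (horizontal axis), with CHOP-/- in orange above wild type in blue, filled where the adjusted p is under 0.05, black ticks at the list medians and stars for Ero1a and Ero1b. The ATF6 and XBP1 target genes have medians of 1.47 in CHOP-/- and 1.36 in wild type cells, and the hypoxia genes lie around 0 (-0.13 in CHOP-/- and -0.08 in wild type cells).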

How the data were processed

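The authors deposited a linear signal for each probe set (unit: intensity), with 1 decimal. The trimmed means of the arrays lay between 250.1 and 250.2, and the sources used here state neither the software nor any scaling. Median signals were 48.2 to 72.6, and 3' to 5' ratios of control probe sets were 0.752 to 0.852 for Gapdh and 0.948 to 1.24 for actin. Of 12488 probe sets, 66 were controls, 10855 had 1 gene in the platform table, 396 several and 1237 none, and 10817 of the 10833 with 1 gene and no control role were in the RefSeq table for GRCm38.p6. The brightest probe set stood for a gene.

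After adding 5.7 (20th percentile), log2 values were quantile normalized, and genes above the 40th percentile were tested. A linear model over 6 group means was estimated in limma 3.58.1 (R 4.3.3) with an intensity trend (18 residual and 5.2 prior degrees of freedom), in 11 comparisons, with Benjamini-Hochberg adjustment in each, and was tested on simulated data. The median log2 change of all genes lay between -0.02 and 0.01. Precision is limited by having 4 arrays per group. Figures used Python 3.11.15 and matplotlib 3.10.9. The list genes named were the 4 with the smallest adjusted p over the 11 comparisons and those called against the direction of their list. Of the ER calcium genes, only the called one was named. Members and lists were chosen with earlier results of these data known. Pairing by letter was checked by the correlation of deviations from group means. It was 0.315 to 0.554 for wild type at 4 h against untreated, 0.403 to 0.618 at 8 h against untreated, 0.252 to 0.610 for 8 h against 4 h and 0.286 to 0.546 between genotypes at 8 h, so these were also fitted with the letter as a block. It was as low as -0.342 in the other comparisons.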

Additional observations from a re-analysis of the deposited data

Results flagged for a closer look

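The signal of Ero1a on 97871_at in untreated wild type cells was set apart by array D, at 786.1, against 603.8 to 631.1 on arrays A to C. The gap to the nearest array took 0.850 of the range of the group, above the 95% limit of Dixon's test for 4 arrays. This was the 1 such case in the 18 groups of 4 examined for the 3 probe sets of the oxidases, and chance gives about 1 in 20. On 97870_s_at array D was also the highest of the untreated wild type arrays, at 668.1.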

How the results depend on the processing

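Alternatives changed the pseudocount, the scaling, the filter, the probe set rule, array weights, the intensity trend, the groups in the fit, the array letter as a replicate block, and each array in turn. The block within the groups compared, and the setting of low signals to the filter signal in the difference between the genes, were added after the data were seen. No change of Ero1a or Ero1b that was called reversed. Under all alternatives run for them, calls held for Ero1a at 8 h in wild type cells (1.09 to 1.25) and between genotypes at 8 h (-0.89 to -0.71), and for Ero1b at 8 h in CHOP-/- (3.45 to 4.19) and wild type cells (3.35 to 4.00), at 4 h in wild type cells and between the times in both. Ero1b was not tested under the filter at the 60th percentile, which left it out.

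Close calls of Ero1a moved. In wild type cells at 4 h, it missed the threshold with arrays centred on their medians (0.59, adjusted p = 0.0768), with the mean of its probe sets (0.60, 0.0983) and with only the groups compared (0.61, 0.0982), and ranged from 0.51 to 0.71 with an array left out. Between the times in wild type cells, it missed with every probe set tested (0.55, 0.0505) and with only the groups compared (0.55, 0.0866), and ranged from 0.45 to 0.65 with an array left out. In CHOP-/- cells between the times, it passed with signals as deposited (0.53, 0.0433), median centring (0.61, 0.0294), the filter at the 60th percentile (0.49, 0.0447) and the block (0.49, 0.0421), and ranged from 0.34 to 0.60 with an array left out. With the mean of its probe sets, it missed at 8 h in CHOP-/- cells (0.52, 0.0572) and between genotypes at 4 h (-0.61, 0.0770), and it also missed between genotypes at 4 h with only these groups in the fit (-0.73, 0.118). For Ero1b in CHOP-/- cells at 4 h, the block gave 1.14 (0.0496), and leaving an array out gave 0.81 to 1.58. Arrays of the same letter did not all deviate together in this comparison or between the times in CHOP-/- cells. The check of pairing thus gave no ground for the block in either. The differences between the genes in the exact tests kept their side of the threshold under the pseudocounts and scalings. With low signals set to the filter signal, the 4 h difference in CHOP-/- cells also passed (0.76, exact test, adjusted p = 0.0367). On 4 h array C this came from the raised Ero1b signal and a low Ero1a signal, and shows no rise of Ero1b there. Exact tests with an array left out are not reported here. The causes were not tested.

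Counts of genes called moved more. Over the other settings and with an array left out, the lowest and highest counts in CHOP-/- cells were 20 and 125 at 4 h (84 as reported), 581 and 1027 at 8 h (792) and 120 and 409 between the times (315). In wild type cells they were 62 and 193 at 4 h (121), 724 and 1634 at 8 h (944) and 108 and 428 between the times (235). Between genotypes they were 23 and 88 untreated (56), 55 and 201 at 4 h (142) and 147 and 659 at 8 h (237). For the response difference they were 0 and 1 at 4 h (0) and 1 and 5 at 8 h (2). Low signals limit Ero1b in untreated cells, where 3 of 4 arrays in each genotype lay under the filter signal.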
